A study of Mus musculus with 48 samples.

Results

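The 10 genes described here, Acta2, Actg2, Myh11, Cnn1, Tagln, Smtn, Lmod1, Des, Itga8 and Npnt, are genes of smooth muscle and of the attachment of the arrector pili muscle to the hair follicle. They were picked by name, as the rows with these symbols, and make up 10 of the 46983 genes in each of the deposited tables. All 10 passed the filter on low values in both tables, among 21257 genes tested in the skin table and 19299 in the ear table.

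Smooth muscle cells contract when the smooth muscle myosin slides along actin filaments, and calponin, transgelin, smoothelin and leiomodin bind and stabilise those filaments. In skin this apparatus is found in the walls of blood vessels, in the arrector pili muscle that raises the hair, and in the dermal sheath around the follicle, which contracts when the follicle regresses. Nephronectin is laid down by bulge cells of the follicle in the basement membrane, where cells of the arrector pili muscle bind it through the integrin that contains the alpha8 chain.

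Whole skin of C57BL/6 mice was taken from 3 domains (chin, ventral, dorsal) at 6 hair cycle stages and sequenced. The stages were the resting phases competent telogen and refractory telogen, early, mid- and late anagen, in which hair grows, and catagen, in which the follicle regresses. These 18 groups hold 2 or 3 libraries each, 43 in all. A second table holds 7 libraries, with 2 of telogen skin from the rostral ear, 3 of the ear cartilage/muscle complex and the 2 dorsal competent telogen libraries again, so that 48 libraries are distinct. No genotype, transgene or treatment is given for any group, ages are not given in the sources used here, and nothing says that replicate libraries came from separate mice, so that the p-values measure the spread between these libraries. Expression is given as FPKM, fragments scaled to transcript length and library depth. Each library held an estimated 6866210 to 29096337 fragments, with a median of 12892301. In whole tissue, fewer cells of a type and less RNA per cell cannot be told apart.

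Several libraries stood apart from their labels. The chin late anagen and dorsal competent telogen groups were nearly the same in expression, and limma called 2 of 21257 genes (0.00941%) between them and 0 of the 10 smooth muscle genes, of which 0 had an unadjusted p under 0.05. Their keratin-associated protein genes, which are expressed in growing hair shafts, summed to 132585 to 138476 and 135276 to 136856 FPKM. The median absolute log2 difference was 0.0936 to 0.109 between these groups, against 0.111 and 0.0757 within them. Mki67, a marker of dividing cells, was at 11.09 to 13.54 FPKM in chin and ventral competent telogen, at 1.39 to 1.42 FPKM in ventral early anagen and at 1.61 to 2.16 FPKM in refractory telogen. In all, 10 of the 43 libraries were more like a library of another group than like their own replicates, and 1 ventral catagen library carries an ear location tag. Dorsal catagen held the most Mki67 of all 18 groups, 22.84 to 23.03 FPKM, against 7.43 to 10.22 FPKM in the other catagen groups. The keratin-associated protein sum was 87826 to 88933 FPKM in dorsal and 107272 to 133832 FPKM in ventral refractory telogen, against 82080 to 138476 FPKM over the late anagen groups and 34801 to 42976 FPKM in chin refractory telogen. The labels of the competent telogen groups and of ventral early anagen are thus not borne out by these values, and those of dorsal catagen and of ventral and dorsal refractory telogen are borne out by only some. Counts over several stages are also given without the competent telogen and early anagen groups, and those in competent telogen and late anagen also without dorsal competent telogen and chin late anagen. Comparisons between single groups follow the labels, and stage names are used as labelled.

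Acta2 (alpha smooth muscle actin) lies on chromosome 19 of GRCm38, at 34241090 to 34255590 on the minus strand, and overlaps no other annotated gene. Serum response factor binds CArG boxes, CC followed by 6 A or T bases and GG, in the promoters of many smooth muscle genes. The 130 bases before the Acta2 start (chr19:34255374-34255503, minus strand, RefSeq on GRCm38.p6) lie within the gene's span above, since the RefSeq start used here is downstream of the outermost annotated one. They are shown because they hold a pair of sequences close to this box. Both are in capitals and each has 1 core base that is G or C, at -84 to -75 and at -34 to -25 from the start.
Acta2 promoter: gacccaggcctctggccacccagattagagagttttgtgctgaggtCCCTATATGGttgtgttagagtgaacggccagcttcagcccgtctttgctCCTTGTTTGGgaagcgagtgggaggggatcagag
An exact CArG box, searched on both strands, was found in 535 of 32851 promoter windows (1.63%), and a box with 1 core base changed in 2792 (8.5%). Promoter windows were at hand for 7 of the 10 genes, all but Myh11, Tagln and Actg2, and numbered 8 in all. Each was a short window around the start, for Acta2 chr19:34255324-34255623, so boxes farther away were not searched. None of these 8 windows held an exact box and 1 of them, that of Acta2, held a box with 1 core base changed. A match is a description of the letters and not of binding.

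The actins are a family of similar coding sequences, which bears on whether their reads can be told apart. The last 60 coding bases of each, stop codon included, are shown, with the 11 bases at which Actg2 differs from Acta2 in capitals.
Acta2: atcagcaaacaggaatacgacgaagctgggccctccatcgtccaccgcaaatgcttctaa
Actg2: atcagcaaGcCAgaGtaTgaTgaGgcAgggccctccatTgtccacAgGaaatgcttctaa
Over the whole coding sequence, Acta2 shared 84.2% of its bases with Actg2, 85.4% with Acta1 (skeletal muscle actin) and 82.5% with Actc1 (cardiac actin). No window of 75 coding bases of Acta2 was identical to one in these genes.

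Actg2, gamma smooth muscle actin, is on chromosome 6 (83512905 to 83536265, minus strand). Acta2 was the member with the highest median level, 68.7 FPKM over the 43 skin libraries, and Actg2 had a median of 9.41 FPKM. In competent telogen, the ventral libraries held 175.82, 160.35 and 158.88 FPKM of Acta2, the chin libraries 66.81 and 70.31, and the dorsal libraries 54.53 and 54.35. In early anagen, the dorsal libraries were highest at 173.46 and 149.48 FPKM of Acta2, the ventral libraries held 71.55, 68.8 and 68.7, and the chin libraries 57.45 and 107.26. In refractory telogen, Acta2 was at 101.07 and 128.16 FPKM in ventral skin, at 74.36, 51.88 and 76.74 in chin skin and at 36.51 and 35.81 in dorsal skin. The domain with the most Acta2 thus differed between the stages as labelled, and ventral and dorsal skin did not overlap at any of these 3 stages. The competent telogen and ventral early anagen labels behind this were not borne out above. Mki67 was at 11.09 to 12.47 FPKM in ventral competent telogen and at 12.87 to 13.44 FPKM in dorsal early anagen. Both dorsal early anagen libraries had a ventral competent telogen library as their nearest of another group.

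**Figure D1:**
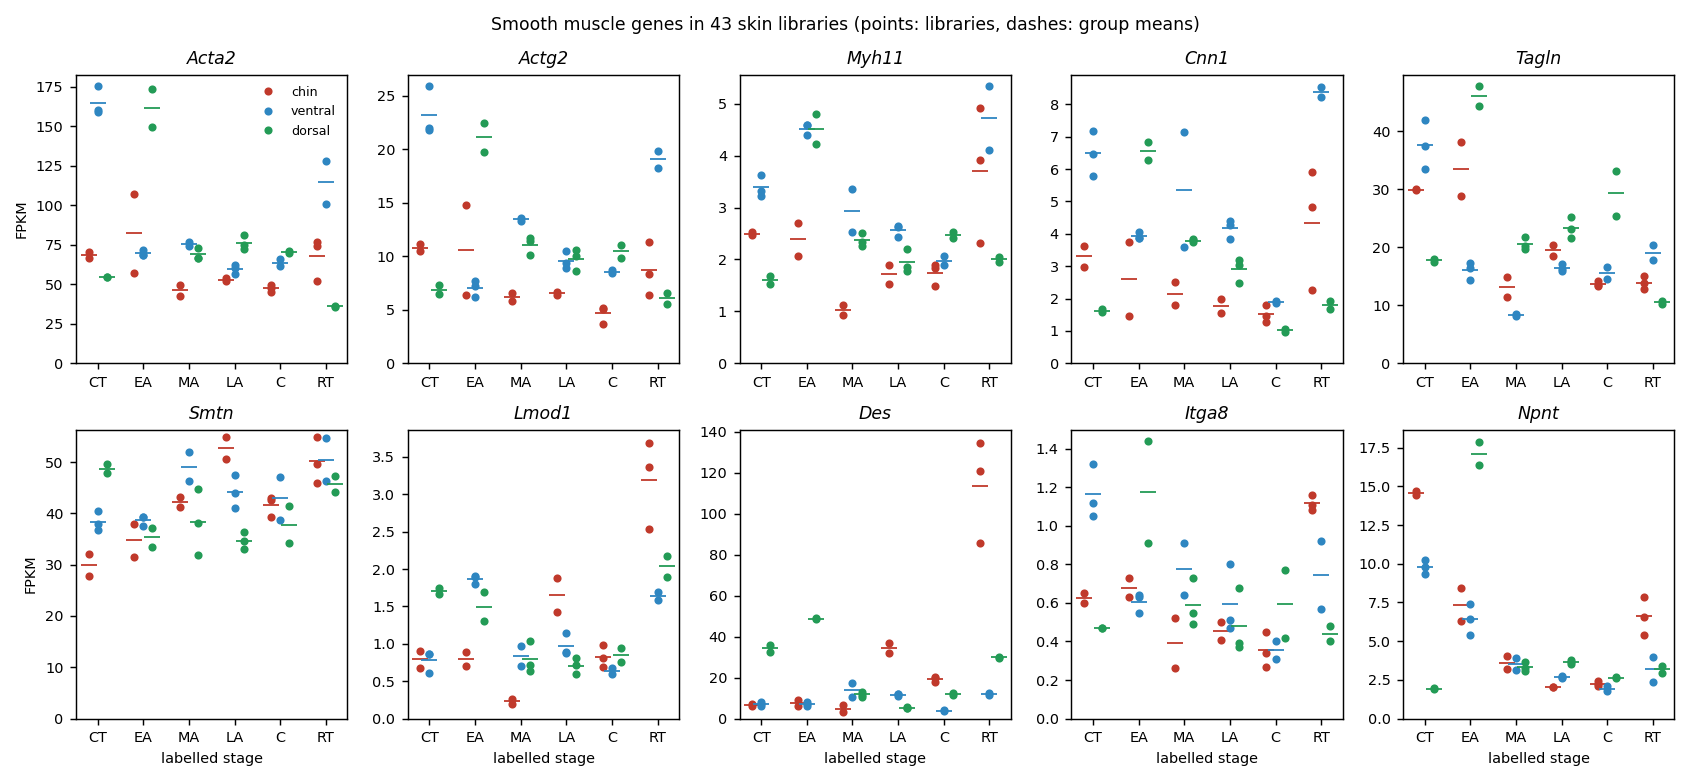
FPKM of the 10 smooth muscle genes (1 panel each, linear scale) in each of the 43 skin libraries (points), by hair cycle stage and coloured by domain, with dashes at the group means. Acta2 spans 35.81 to 175.82 FPKM, with its highest libraries in ventral competent telogen and its lowest in dorsal refractory telogen, and Des spans 3.21 to 134.41 FPKM.

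On the log2(FPKM + 1) scale, on which fold changes of low genes are understated, Acta2 was higher in ventral than in dorsal skin by 1.58 (SE 0.15, limma adjusted p = 2.16e-09) in competent telogen and by 1.63 (SE 0.17, adjusted p = 4.91e-08) in refractory telogen. In early anagen the same difference was -1.20 (SE 0.15, adjusted p = 3.42e-07). Actg2 followed with differences of 1.62, 1.51 and -1.46, of which the one in refractory telogen did not pass when only the 7 libraries of that stage were fitted (adjusted p = 0.061). Actg2 held 25.85, 21.79 and 21.98 FPKM in ventral competent telogen, 22.42 and 19.76 in dorsal early anagen, and 19.81 and 18.26 in ventral refractory telogen, the 3 groups in which Acta2 also was at or above 101.07 FPKM in every library. Over the 18 group means, the log2 levels of both actins had a Pearson's r of 0.93, a description in which the points share libraries. The 1 library of chin early anagen with 107.26 FPKM of Acta2 (replicate 2) also had 14.78 FPKM of Actg2, against 6.35 in replicate 1.

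The fibroblast markers moved with the actins. Their 7 genes summed to 6291.1 to 6417.7 FPKM in ventral competent telogen, 5244.2 to 5272.8 in dorsal early anagen and 1150.3 to 1188.7 in dorsal refractory telogen. For r, here and below, a list's level was the mean log2(FPKM + 1) over its genes and not the sum. Over the 18 groups this level had an r of 0.81 with Acta2, 0.77 with Actg2 and 0.91 with Itga8. The part of fibroblasts in these differences was not tested.

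Myh11, the smooth muscle myosin heavy chain, is on chromosome 16 (14194535 to 14291372, minus strand) and Cnn1, calponin, on chromosome 9 (22099216 to 22109630, plus strand). Myh11 was lowest in chin mid-anagen, with 0.93 and 1.12 FPKM, and highest in ventral refractory telogen, with 5.34 and 4.11 FPKM. Cnn1 was highest in the same group, with 8.54 and 8.23 FPKM, and lowest in dorsal catagen, with 0.96 and 1.07 FPKM. Their group means spanned a ratio of 4.61 and 8.26. For Myh11, only 2 of the 17 steps between neighbours in the order of group means separated libraries that did not overlap, and for Cnn1 4 of 17, so that most neighbours could not be set apart. Ventral early anagen, with 4.39, 4.58 and 4.59 FPKM of Myh11, also held the highest summed level of the 10 endothelial markers, 316.28 to 323.02 FPKM. Over the 18 groups Myh11 had an r of 0.80 with the mean log2 level of the endothelial markers and 0.73 with that of the pericyte markers. Its r was 0.78 with Cnn1 and 0.72 with Acta2.

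By likeness over the 18 group means, among 9471 genes with a mean of at least 5 FPKM, the genes most like Myh11 were Mylk (r = 0.944), the kinase that activates smooth muscle myosin, Sult1a1 (0.886), Gng11 (0.878), Ecscr (0.875) and Aqp1 (0.872). Ecscr and Aqp1 are expressed by endothelial cells.

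Tagln, transgelin, lies on chromosome 9 (45929619 to 45936058, minus strand), where it overlaps Pcsk7 and the antisense gene Gm48529. The strand setting of the authors' counting is not given in the sources used here, so reads of overlapping genes may be shared. Tagln was highest in dorsal early anagen (47.81 and 44.39 FPKM) and in ventral competent telogen (41.97, 37.55 and 33.53 FPKM). It was lowest in ventral mid-anagen, with 8.1 and 8.57 FPKM. Dorsal catagen held 33.19 and 25.41 FPKM of Tagln, above the 13.35, 13.44 and 14.26 FPKM of chin catagen and the 14.61 and 16.65 FPKM of ventral catagen, with no overlap.

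Smtn, smoothelin, is on chromosome 11 (3517523 to 3540612, minus strand), overlapping the transcripts Gm11946 and Gm11947. It varied least among the 10 genes, from 27.81 to 54.94 FPKM, with a ratio of 1.76 between its highest and lowest group means. Smtn went against Tagln over the 18 groups (r = -0.66), and its r with the other 8 genes lay between -0.62 (Npnt) and 0.49 (Des). Lmod1, leiomodin, which nucleates actin filaments, is on chromosome 1 (135324807 to 135368065, plus strand, overlapping the small RNA gene Gm22796). Its lowest libraries were those of chin mid-anagen, at 0.26 and 0.2 FPKM, which correspond to about 9.1 and 5.1 fragments on its transcript of 3948 bases. Its highest were those of chin refractory telogen, at 3.37, 2.53 and 3.69 FPKM. The ratio of these group means was 13.9, and the low one rests on few fragments.

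**Figure D2:**
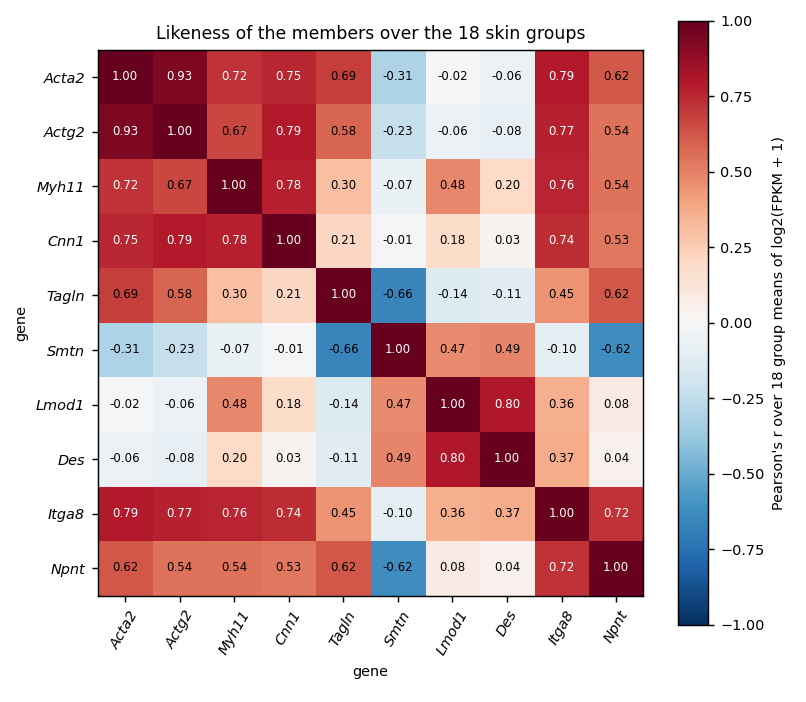
Pearson's r between the 10 smooth muscle genes over the 18 skin group means of log2(FPKM + 1), with red for positive and blue for negative values. Acta2, Actg2, Myh11, Cnn1 and Itga8 had r between 0.67 and 0.93 with each other, Lmod1 and Des had 0.80, and Smtn was negative with Tagln (-0.66) and Npnt (-0.62).

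Des, desmin, the intermediate filament protein of smooth and of skeletal muscle, lies on chromosome 1 (75360329 to 75368579, plus strand, with the antisense gene Gm15179). It varied most among the 10 genes, with a ratio of 29.0 between group means. Chin refractory telogen held 134.41, 85.7 and 120.86 FPKM of Des, above all other groups. Dorsal early anagen followed with 48.42 and 48.89 FPKM, and ventral catagen was lowest with 3.96 and 3.88 FPKM. Of the 17 steps between neighbours in the order of means, 7 separated libraries that did not overlap.

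Skeletal muscle moved with Des. The 18 skeletal muscle markers summed to 17229 to 27406 FPKM in chin refractory telogen, 9675.5 to 9823.1 in dorsal early anagen and 349.84 to 362.12 in ventral catagen. Over the 18 groups, the mean log2 level of the skeletal markers had an r of 0.94 with Des and 0.68 with Lmod1. Its r was -0.20 with Acta2 and 0.03 with Myh11. The mean log2 level of the smooth muscle contraction partners had an r of 0.90 with Des and 0.88 with Lmod1. With Acta2 and Myh11 the r was 0.21 and 0.50. Des and Lmod1 had an r of 0.80 with each other, while Des and Acta2 had -0.06. The part of skeletal muscle in the levels of Des and Lmod1 was not tested.

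**Figure D3:**
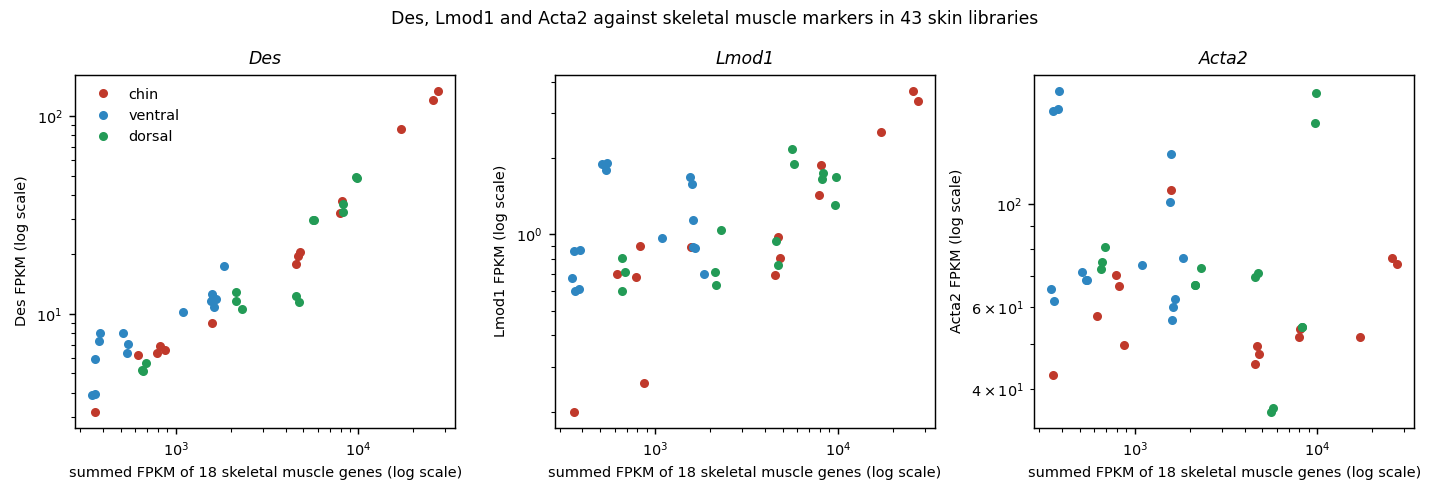
Des, Lmod1 and Acta2 (FPKM, log scale, 1 panel each) against the summed FPKM of 18 skeletal muscle markers (log scale) in the 43 skin libraries, coloured by domain. Des rises with the skeletal sum, from ventral catagen (349.84 to 362.12 FPKM) to chin refractory telogen (17229 to 27406 FPKM). Acta2 shows no such slope, and its r with the mean log2 level of these markers over the group means was -0.20.

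Itga8, the integrin chain, is on chromosome 2 (12106632 to 12301922, minus strand, overlapping Gm37701 and the antisense gene E030013I19Rik). Npnt, its ligand nephronectin, is on chromosome 3 (132881745 to 132950291, minus strand, overlapping the small RNA gene Gm23196). Nephronectin is bound through its RGD motif, and the stretch of its coding sequence that holds this motif (coding bases 1276 to 1308, with the codons 430 to 432 of 609 in capitals) is shown for that reason.
Npnt: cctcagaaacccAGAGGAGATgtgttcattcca
Itga8 was low throughout, from 0.26 to 1.44 FPKM, and highest in dorsal early anagen (1.44 and 0.91 FPKM), in ventral competent telogen (1.12, 1.05 and 1.32 FPKM) and in chin refractory telogen (1.11, 1.08 and 1.16 FPKM). Npnt ranged from 1.78 to 17.86 FPKM. Dorsal early anagen held 17.86 and 16.36 FPKM of Npnt and chin competent telogen 14.69 and 14.46 FPKM, while dorsal competent telogen held only 1.92 and 1.96 FPKM. Every late anagen and catagen library of all 3 domains lay between 1.78 and 3.76 FPKM of Npnt.

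The ligand and its receptor chain had an r of 0.72 over the 18 groups. The genes most like Npnt were Prnp (r = 0.949), the prion protein gene, Sptssa (0.948), Vrk2 (0.931), Toe1 (0.922) and B230219D22Rik (0.918). Among the lists, by mean log2 level, Npnt had its highest r with the cartilage markers (0.85), which summed to only 0.39 to 2.75 FPKM in skin. The bulge markers (0.74), the skin epithelium markers (0.69) and the smooth muscle transcription factors (0.65) followed.

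Whether the course over the cycle differed between the domains was tested by the interaction of domain and stage, and limma called all 10 genes, with 73.3% of all genes tested called. The adjusted p ranged from 2.16e-15 for Des to 0.000111 for Smtn. Among the stages, 10 of the 10 genes were called in the chin (background 66.2%), 10 in ventral skin (70.2%) and 10 in dorsal skin (68.5%). With so many genes called, these counts do not set the smooth muscle genes apart. Without the competent telogen and early anagen groups, an alternative chosen after seeing the data, 9 of 10 showed the interaction (Smtn was lost, background 59%), and 10 changed among the chin stages (background 56.4%), 8 among the ventral stages (46%) and 6 among the dorsal stages (52.7%).

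Among the domains within a stage, 10 genes were called in competent telogen (background 54.0%), 9 in early anagen (all but Smtn, 51.6%), 8 in mid-anagen (all but Itga8 and Npnt, 38.1%), 7 in late anagen (all but Actg2, Myh11 and Itga8, 20.8%), 4 in catagen (Acta2, Actg2, Tagln and Des, 42.9%) and 9 in refractory telogen (all but Smtn, 42.2%). The count in late anagen fell to 4 without chin late anagen replicate 1, a fit for which the share of all genes called is not given. It fell to 2 without the whole chin late anagen and dorsal competent telogen groups, also an alternative chosen after seeing the data, when the background was 2.67%, and the count in competent telogen to 6, with a background of 22%.

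In early anagen, dorsal skin was higher than chin skin in 9 of the 10 genes, all but Smtn, where 16.7% of all genes were higher. Des led, at 48.42 and 48.89 FPKM in dorsal and 6.19 and 9.02 FPKM in chin skin, a log2 difference of 2.55 (SE 0.21, limma adjusted p = 2.77e-10). Npnt was higher by 1.12 (SE 0.15, adjusted p = 2.13e-06) and Myh11 by 0.71 (SE 0.16, adjusted p = 0.00149). Acta2 was higher by 1.03 (adjusted p = 4.47e-05), which did not pass with only the libraries of that stage (adjusted p = 0.0623). Actg2, Cnn1 and Lmod1 did not pass without chin early anagen replicate 1, where Actg2 differed by 0.48 (adjusted p = 0.0959), nor did Tagln and Itga8, and Tagln, Lmod1 and Itga8 also failed without dorsal early anagen replicate 1 and Itga8 without chin early anagen replicate 2. With scaling by the median of ratios, 46.9% of the calls were higher in dorsal skin in place of 61.9%. Then 7 of the 10 genes were called higher, where 11.5% of all genes were higher. Of the marker lists, 18 of 18 skeletal, 7 of 7 fibroblast, 6 of 10 endothelial and 6 of 11 pericyte markers were also higher in dorsal skin, and their part was not tested.

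Ventral skin was lower than dorsal skin in early anagen in 7 of the 10 genes, all but Myh11, Smtn and Lmod1, where 27.7% of all genes were lower. The ventral early anagen label was not borne out above. Mki67 was at 1.39 to 1.42 FPKM there and at 12.87 to 13.44 FPKM in dorsal early anagen, so these groups may not be at the same phase. Tagln was at 16.49, 17.31 and 14.45 FPKM in ventral and 47.81 and 44.39 FPKM in dorsal skin, a log2 difference of -1.47 (SE 0.12, adjusted p = 3.68e-11). Des differed by -2.62, Npnt by -1.30 and Acta2 by -1.20. Itga8 did not pass without dorsal early anagen replicate 1, and Cnn1 (-0.62, adjusted p = 0.0321) did not pass when any 1 of the 5 libraries was left out. Under the median of ratios, 53.2% of calls were higher in ventral skin in place of 33.6%. Of the 10 genes, 6 were then lower (18% of all genes) and 2 higher (20.5%). All 18 skeletal and all 7 fibroblast markers were lower in ventral skin as well, while all 10 endothelial markers were higher, and their part was not tested. With FPKM as deposited, 14% of all genes were higher in ventral skin.

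Mki67 was low in all 7 refractory telogen libraries, of which 1 (ventral replicate 2) was marginally more like a chin late anagen library (r = 0.9381) than like its own replicate (0.9378). The keratin-associated protein sums of the ventral and dorsal libraries, given above, lay within the late anagen range. In this stage, dorsal skin was lower than chin skin in 8 of the 10 genes (all but Actg2 and Smtn), where 27.2% of all genes were lower. Des was at 29.72 and 29.87 FPKM in dorsal skin, below each of the 3 chin libraries, with a log2 difference of -1.87 (SE 0.19, adjusted p = 1.02e-08). Acta2 differed by -0.86 (SE 0.15, adjusted p = 5.43e-05) and Itga8 by -0.56 (SE 0.12, adjusted p = 0.000679). The loss of 1 library ended the calls of Cnn1 (dorsal refractory telogen replicate 2), Lmod1 (dorsal replicate 1) and Tagln (chin replicate 2 or either dorsal library). Under the median of ratios 46.5% of calls were higher in dorsal skin in place of 21.9%. Then 6 of the genes were lower, where 17.5% of all genes were lower. In the same comparison, 18 of 18 skeletal, 7 of 7 fibroblast, 7 of 10 endothelial and 6 of 11 pericyte markers were lower in dorsal skin, and their part was not tested.

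Ventral skin in refractory telogen was higher than dorsal skin in 5 of the 10 genes (Acta2, Actg2, Myh11, Cnn1 and Tagln), where 8.1% of all genes were higher, and lower in Des. These 5 are the actins, the myosin heavy chain and the filament-binding calponin and transgelin. Cnn1 had the widest gap, with 8.54 and 8.23 FPKM in ventral and 1.94 and 1.69 FPKM in dorsal skin, a log2 difference of 1.74 (SE 0.25, adjusted p = 1.12e-05). Myh11 was at 5.34 and 4.11 FPKM against 2.05 and 1.95 FPKM, a difference of 0.92 (SE 0.16, adjusted p = 0.000129), and Tagln differed by 0.80 (SE 0.13, adjusted p = 4.85e-05). Des went the other way, with 11.56 and 12.6 FPKM against 29.72 and 29.87 FPKM (-1.24, SE 0.21, adjusted p = 0.00011). The skeletal marker sum was 1558.2 to 1588.5 FPKM in ventral and 5619.9 to 5737.6 FPKM in dorsal skin, and the fibroblast sum 2308.5 to 2898.1 and 1150.3 to 1188.7 FPKM. The endothelial sum was 130.58 to 137.86 and 92.18 to 96.0 FPKM, and the pericyte sum 151.93 to 174.71 and 134.36 to 140.81 FPKM. The part of these cell types in the differences was not tested. With only the 7 libraries of the stage, Actg2, Myh11, Cnn1 and Des did not pass. Rescaled to TPM, 39.4% of calls were higher in ventral skin in place of 59.3%. The same number of these genes, 5 higher and 1 lower, were called, where 4.71% of all genes were higher and 7.24% lower.

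From catagen to refractory telogen the follicle comes to rest after regression, with the limits on these labels given above. In the chin, 9 of the 10 genes rose, all but Tagln, where 30.5% of all genes were higher. Des rose from 17.85, 20.5 and 19.62 FPKM in catagen to 134.41, 85.7 and 120.86 FPKM, a log2 change of 2.47 (SE 0.17, limma adjusted p = 2.07e-12). Npnt rose by 1.22 (SE 0.12, adjusted p = 2.47e-09), from 2.13 to 2.4 FPKM to 5.43 to 7.86 FPKM, and Lmod1 by 1.19 (SE 0.11, adjusted p = 2.68e-10). Cnn1 rose by 1.02, Actg2 by 0.75, Myh11 by 0.74 and Itga8 by 0.65, and none of these libraries overlapped between the stages. Tagln was at 13.35, 13.44 and 14.26 FPKM in catagen and 12.81, 14.99 and 13.8 FPKM in refractory telogen (0.02, 95% interval -0.20 to 0.23). Acta2 (0.48, adjusted p = 0.00497) did not pass under the median of ratios, nor did Smtn (0.26, adjusted p = 0.0364), which also failed without chin catagen replicate 2 or 3 or chin refractory telogen replicate 1 or 3. Under the median of ratios 52.4% of calls were higher in place of 63.5%. Then 7 of the genes were higher, where 25.3% of all genes were higher.

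In ventral skin, 8 of the 10 genes rose from catagen to refractory telogen, all but Tagln and Smtn, where 14.9% of all genes were higher. Cnn1 rose from 1.93 and 1.86 to 8.54 and 8.23 FPKM (1.70, SE 0.25, adjusted p = 5.59e-06), and Des from 3.96 and 3.88 to 11.56 and 12.6 FPKM (1.41, SE 0.21, adjusted p = 6.25e-06). Actg2 rose by 1.06, Myh11 by 0.93, Acta2 by 0.83 and Lmod1 by 0.69, each with no overlap between the groups. These 6 calls also held without the ventral catagen library that carries the ear tag. Those of Itga8 (0.36, adjusted p = 0.0412) and Npnt (0.48, adjusted p = 0.0143) were lost without the tagged library (replicate 1), where they were at 0.31 (adjusted p = 0.192) and 0.40 (adjusted p = 0.12), or without ventral refractory telogen replicate 1. Itga8 was also lost without ventral catagen replicate 2.

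In dorsal skin, the same step gave 2 rises and 3 falls, where 43.7% of all genes changed. Its catagen group is the one with the highest Mki67. Tagln fell from 33.19 and 25.41 to 10.26 and 10.82 FPKM (-1.38, SE 0.13, adjusted p = 6.65e-10), and Acta2 from 71.23 and 69.81 to 36.51 and 35.81 FPKM (-0.94, SE 0.17, adjusted p = 3.63e-05). Actg2 fell from 9.85 and 11.09 to 6.61 and 5.52 FPKM (-0.70, adjusted p = 0.00868), which did not pass without dorsal catagen replicate 2 (adjusted p = 0.0694) or dorsal refractory telogen replicate 2 (adjusted p = 0.0864). Des rose from 11.44 and 12.38 to 29.72 and 29.87 FPKM (1.26, SE 0.21, adjusted p = 1.52e-05) and Lmod1 from 0.76 and 0.94 to 1.9 and 2.18 FPKM (0.72, SE 0.13, adjusted p = 4.66e-05). Des and Lmod1 were thus the genes that rose in all 3 domains, and Acta2 and Actg2 the ones that rose in chin and ventral skin and fell in dorsal skin.

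**Figure D4:**
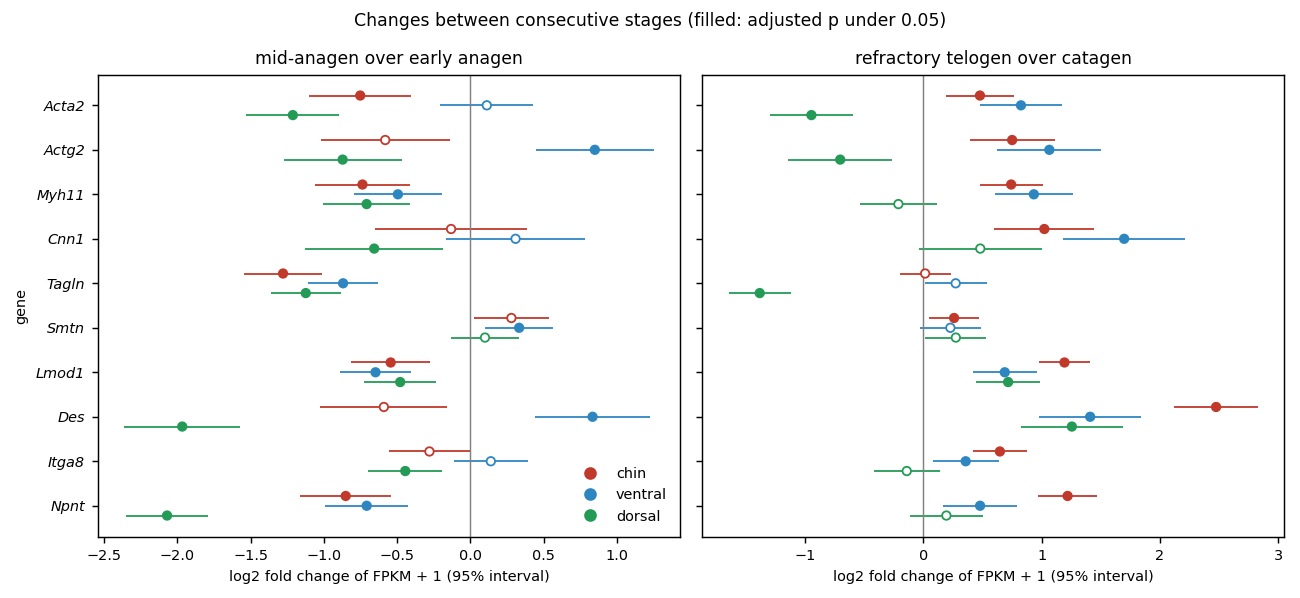
Log2 fold change of FPKM + 1 with its 95% interval for the 10 smooth muscle genes, from early to mid-anagen (left) and from catagen to refractory telogen (right), coloured by domain, with filled points where the adjusted p was under 0.05. On the right, Acta2 and Actg2 lie above 0 in chin and ventral skin and below 0 in dorsal skin (Acta2 at 0.48, 0.83 and -0.94), and Des lies at 2.47, 1.41 and 1.26.

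Other cell types moved with this step. The summed skeletal markers went from 4545.2 to 4816.3 FPKM in chin catagen to 17229 to 27406 FPKM in refractory telogen, and from 349.84 to 362.12 to 1558.2 to 1588.5 FPKM in ventral skin. All 18 skeletal markers were higher in refractory telogen in the chin, 15 in ventral skin and 5 in dorsal skin, with 3 lower there. The 11 pericyte markers had 9 higher and 2 lower in the chin, 8 and 2 in ventral skin, and 3 and 2 in dorsal skin. Of the 7 fibroblast markers, 7 were higher in the chin, 7 in ventral skin and 0 in dorsal skin, where 3 were lower. Over all genes, 30.5% were higher and 17.5% lower in the chin, 14.9% and 18.8% in ventral skin, and 19.1% and 24.5% in dorsal skin. Chin refractory telogen replicate 2 was the lowest of its group in each of the 10 genes but Tagln, of which it held the most (14.99 FPKM). This library also held the least of the skeletal (17229 FPKM), pericyte (141.54 FPKM), endothelial (121.97 FPKM) and fibroblast markers (2053 FPKM). The part of these cells in the changes was not tested.

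Of 22 contraction partners of the smooth muscle apparatus, 20 were tested, and from catagen to refractory telogen 13 were higher and 2 lower in the chin, 11 and 0 in ventral skin, and 8 and 3 in dorsal skin. Their median log2 changes were 0.82, 0.52 and 0.27, against 0.085, -0.034 and 0 over all genes. Of all genes, 30.5% were higher and 17.5% lower in the chin, 14.9% and 18.8% in ventral skin, and 19.1% and 24.5% in dorsal skin. The same shares stand beside the counts of the lists that follow. Tpm2, beta tropomyosin, which is also expressed in skeletal muscle, rose by 1.55, 0.64 and 0.92. Of the transcription factors that drive smooth muscle genes, 6 of 7 were tested, and 5 were higher in the chin, 2 in ventral skin and 3 in dorsal skin, with 1 lower there. Among the 6 genes for the beta chain that pairs with the alpha8 integrin and for its other ligands, 5 were higher and 1 lower in the chin, 3 and 0 in ventral skin, and 0 and 2 in dorsal skin. Fn1, fibronectin, changed by 0.84, 0.96 and -0.58, with the opposite sign in dorsal skin, and Itgb1, the beta chain, by 0.72 in the chin and -0.41 in dorsal skin.

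From early to mid-anagen, 5 of the 10 genes fell in the chin (Acta2, Myh11, Tagln, Lmod1 and Npnt), where 14.5% of all genes were lower. Tagln fell from 28.84 and 38.2 to 11.47 and 14.93 FPKM (-1.28, SE 0.13, adjusted p = 2.52e-08) and Npnt from 8.42 and 6.31 to 3.2 and 4.04 FPKM (-0.85, SE 0.15, adjusted p = 0.000215). The calls of Acta2 and Lmod1 were lost without chin early anagen replicate 2, where Acta2 changed by -0.31 (adjusted p = 0.183). Under the median of ratios 59.9% of calls were higher in place of 20.2%. Of the 10 genes, 5 were still lower (4.69% of all genes) and 1 higher (7.01%).

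In ventral skin, the step from early to mid-anagen gave 3 rises (Actg2, Smtn and Des) and 4 falls (Myh11, Tagln, Lmod1 and Npnt), where 42.4% of all genes changed. The ventral early anagen group is the one with Mki67 at 1.39 to 1.42 FPKM, whose label was not borne out above. Tagln fell from 16.49, 17.31 and 14.45 to 8.1 and 8.57 FPKM (-0.87, SE 0.12, adjusted p = 6.56e-07), and Lmod1 and Npnt by 0.65 and 0.71 on the log2 scale. Actg2 rose by 0.85 (SE 0.20, adjusted p = 0.000785), from 7.23, 6.23 and 7.65 FPKM. Des was at 10.27 and 17.46 FPKM in mid-anagen, and its call was lost without replicate 2 of that group (adjusted p = 0.104), as were those of Myh11 and Smtn, the latter also without ventral early anagen replicate 1. Under the median of ratios 50.4% of calls were higher in place of 39.5%. The counts were the same, 3 higher (21.6% of all genes) and 4 lower (21.3%).

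In dorsal skin, 9 of the 10 genes fell from early to mid-anagen, all but Smtn, where 30.1% of all genes were lower. Npnt fell from 17.86 and 16.36 to 3.04, 3.63 and 3.27 FPKM (-2.07, SE 0.14, adjusted p = 1.12e-12) and Des from 48.42 and 48.89 to 11.67, 12.95 and 10.58 FPKM (-1.97, SE 0.19, adjusted p = 3.01e-09). Acta2 changed by -1.21 (SE 0.15), Tagln by -1.12 (SE 0.12), Actg2 by -0.87 and Myh11 by -0.71. The calls of Itga8 and Lmod1 were lost without dorsal early anagen replicate 1, and that of Cnn1 without either early anagen library or mid-anagen replicate 3. The median of all genes also moved, by -0.178, and under the median of ratios 50.9% of calls were higher in place of 23.2%. Of the 10 genes, 7 were then lower (15.9% of all genes) and 1 higher (16.4%). Tagln and Npnt were the genes whose fall held under each alternative run in all 3 domains.

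Other cell types moved with this step too. In dorsal skin the fibroblast markers summed to 5244.2 to 5272.8 FPKM in early and 1004.7 to 1075.6 FPKM in mid-anagen, the skeletal markers to 9675.5 to 9823.1 and 2140.0 to 2303.6 FPKM, and the endothelial markers to 149.56 to 167.53 and 61.99 to 68.67 FPKM. In the chin, 5 of 7 fibroblast, 8 of 18 skeletal, 6 of 10 endothelial and 6 of 11 pericyte markers fell and 0 rose. Of all genes, 14.5% fell and 3.66% rose in the chin. In ventral skin, 6 of 7 fibroblast and 11 of 18 skeletal markers rose and all 10 endothelial markers fell, where 16.8% of all genes rose and 25.6% fell. The part of these cells in the changes was not tested.

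The ear table sets the dorsal skin beside telogen ear skin and the cartilage/muscle complex. The tissues held the markers their labels call for. The 5 skin epithelium markers summed to 7.07 to 7.88 FPKM in the complex and 8486 to 9044 in ear skin, and the cartilage markers to 1661.3 to 2076.9 FPKM in the complex, 3.27 to 3.35 in ear skin and 1.04 to 1.49 in dorsal skin. The skeletal markers summed to 30459 to 34856 FPKM in the complex, 1785.4 to 1832.3 in ear skin and 8220.8 to 8284.5 in dorsal skin. The dorsal libraries are those whose stage label the keratin-associated protein genes did not bear out.

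**Figure D5:**
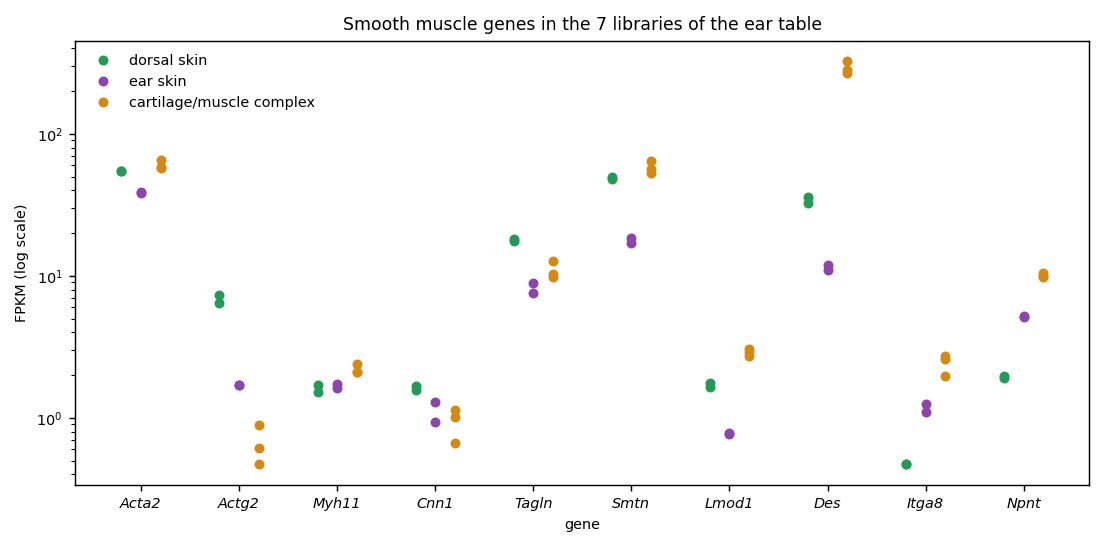
FPKM (log scale) of the 10 smooth muscle genes in the 7 libraries of the ear table, as points coloured by tissue. The complex holds the most Des (268.28 to 326.35 FPKM), Itga8 and Npnt and the least Actg2 (0.47 to 0.89 FPKM), and dorsal skin the most Actg2 (6.48 and 7.3 FPKM) and Tagln.

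Between ear skin and dorsal skin, 2 of the 10 genes were higher in the ear (Itga8 and Npnt), where 44.7% of all genes were higher, and 6 were lower (Acta2, Actg2, Tagln, Smtn, Lmod1 and Des), where 14.6% were lower. Npnt was at 5.24 and 5.13 FPKM in ear skin and 1.92 and 1.96 FPKM in dorsal skin (1.07, SE 0.076, adjusted p = 7.77e-05). Actg2 was at 1.7 and 1.7 FPKM against 6.48 and 7.3 FPKM (-1.55, SE 0.14, adjusted p = 0.000212). Smtn was at 18.44 and 17.01 FPKM against 49.6 and 47.86 FPKM (-1.41, SE 0.10, adjusted p = 7.86e-05). No library of ear skin overlapped dorsal skin in these 3 genes. The median of all genes was 0.33, and under the median of ratios it was 0.027 and 49.6% of calls were higher in place of 75.3%. Of the 10 genes, 1 was then higher (26.8% of all genes) and 7 lower (27.3%). Acta2 (-0.49, adjusted p = 0.00173) was at 38.85 and 38.25 FPKM in ear skin, and the sign turned (0.09, adjusted p = 0.354) when dorsal refractory telogen stood in for the dorsal group. With that group, 2 of the 10 genes were higher (44.7% of all genes) and 4 lower (12.5%). The call of Itga8 (0.56, adjusted p = 0.0128) was lost without either dorsal library or 1 of the ear skin libraries.

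Between the complex and dorsal skin, 5 of the 10 genes were higher in the complex (Myh11, Lmod1, Des, Itga8 and Npnt), where 42.8% of all genes were higher, and 3 were lower (Actg2, Cnn1 and Tagln), where 28.3% were lower. Des was at 279.46, 326.35 and 268.28 FPKM in the complex (3.05, SE 0.10, adjusted p = 1.27e-06) and Npnt at 9.74, 10.46 and 10.0 FPKM (1.91, SE 0.069, adjusted p = 1.99e-06). Actg2 was at 0.47, 0.89 and 0.61 FPKM (-2.26, SE 0.13, adjusted p = 1.37e-05), although Acta2 was at 58.84, 65.0 and 57.37 FPKM and did not differ from dorsal skin by a called amount (0.15, adjusted p = 0.0935). The complex held less Actg2 than either skin, with no overlap. Cnn1 lost its call without either dorsal library or complex replicate 3, and Myh11 without either dorsal library or complex replicate 2. With dorsal refractory telogen as the dorsal group, Tagln lost its call and its sign turned. Of the 10 genes, 6 were then higher (42.1% of all genes) and 2 lower (26.1%). The median of all genes was 0.236, and under the median of ratios, where it was -0.006, 47.6% of calls were higher in place of 60.2%. Of the 10 genes, 4 were then higher (33.5% of all genes) and 4 lower (36.9%), Acta2 among the lower at -0.23.

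Between the complex and ear skin, 8 of the 10 genes were higher in the complex, all but Actg2 and Cnn1, where 28.0% of all genes were higher, and Actg2 was lower, where 38.5% were lower. Des differed by 4.55 (SE 0.10, adjusted p = 2.48e-07), Smtn by 1.64 (SE 0.091, adjusted p = 1.41e-05), Lmod1 by 1.13 (SE 0.082, adjusted p = 4.61e-05), Npnt by 0.84 and Itga8 by 0.65. Itga8 was at 2.59, 1.96 and 2.74 FPKM in the complex against 1.1 and 1.25 FPKM in ear skin, with no overlap. The calls of Myh11 (0.25, adjusted p = 0.0467) and Tagln (0.36, adjusted p = 0.0383) lay near the threshold and were lost when any 1 of the 5 libraries was left out for Myh11, and any but complex replicate 1 for Tagln. The median of all genes was -0.106, and rescaled to TPM, where it was -0.301, 31.8% of calls were higher in place of 42.1%. Of the 10 genes, 6 were then higher (21.3% of all genes) and 1 lower (45.7%). The skeletal, cartilage and epithelium sums given above also differed between these tissues, and their part in the differences was not tested.

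Of 21 contraction partners tested in the ear table, 5 were higher and 10 lower in ear skin than in dorsal skin, and 17 were higher and 2 lower in the complex than in ear skin. Of all genes, 44.7% were higher and 14.6% lower in ear skin than in dorsal skin. For the complex over ear skin, these shares were 28.0% and 38.5%. The partners and ligands of the alpha8 integrin were higher in the complex than in dorsal skin in 4 of 6 cases and lower in 1, with Spp1, osteopontin, at 3.64, Fn1 at 2.53 and Itgb1 at 1.13 on the log2 scale. In this comparison 42.8% of all genes were higher and 28.3% lower, so a count over 6 genes does not set them apart. All 18 skeletal markers were higher in the complex than in ear skin, and 17 of 18 were lower in ear skin than in dorsal skin.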

How the data were processed

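Total RNA of whole mouse tissue was prepared as SMART-seq2 libraries. Per the submitters' processing notes and the study's methods, the authors aligned reads to mm10 with GENCODE annotation, ran RSEM 1.2.25 and deposited its FPKM for each gene. They state edgeR on FPKM and a batch correction without naming the batches. FPKM are not counts, so log2(FPKM + 1), with a pseudocount of 1, was tested in R 4.3.3 with a variance trend and empirical Bayes moderation (limma 3.58.1, statmod 1.5.0). Genes needed at least 0.5 FPKM in at least 2 libraries, and p-values were adjusted by Benjamini-Hochberg over all genes tested (threshold 0.05). A first fit held the 18 groups of skin libraries, 43 in all, and a second the 7 libraries of the ear table. The fits were tested on simulated data. Python 3.11.15, pandas 2.3.3 and matplotlib 3.10.9 were used for levels and figures.

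The FPKM of genes with 1 transcript step by whole fragments, which gave an estimate of depth. It covers counting error only. Gene positions came from GENCODE on GRCm38, the build of mm10, and promoters from RefSeq. The 10 genes and the lists of other genes were chosen with earlier results of these data known. All 10 genes are named in each comparison, and of each list at most the 4 genes with the highest mean FPKM. The 5 genes most like Myh11 and Npnt are also named. Genes of the label checks were picked after their values were seen. Alternatives were a pseudocount of 0.1, no filter, a minimum of 5 FPKM, TPM, the median of ratios, quantile normalization, fits without a variance trend or on fewer libraries, the replicate number as a block, dorsal refractory telogen as the dorsal group of the ear, and each library left out in turn. Leaving out whole groups was added after seeing the data.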

Additional observations from a re-analysis of the deposited data

Results flagged for a closer look

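The course over the hair cycle differed between chin, ventral and dorsal skin for each of the 10 genes, by limma's F-test for a domain-by-stage interaction over 43 libraries. The adjusted p was 1.62e-10 for Acta2, 9.01e-09 for Actg2, 1.2e-05 for Myh11, 1.13e-05 for Cnn1 and 1.12e-12 for Tagln. It was 0.000111 for Smtn, 6.04e-08 for Lmod1, 2.16e-15 for Des, 9.28e-05 for Itga8 and 8.42e-13 for Npnt. Of all genes tested, 73.3% passed the same test, so the passing of these 10 does not set them apart, and the doubted stage labels enter it.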

How the results depend on the processing

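Of the values for single genes, 75 of 150 between consecutive stages were called, 49 of them under every alternative, 97 of 180 between domains, 50 of them under every alternative, and 25 of 30 between ear tissues, 17 of them. No value between stages or domains that was called in either fit changed sign. In the ear, 4 did. Acta2 in the complex over dorsal skin went from 0.15 to -0.23 under the median of ratios (adjusted p = 0.00999), and in ear skin over dorsal skin from -0.49 to 0.0899 with dorsal refractory telogen as the dorsal group. With the same group, Tagln in the complex over dorsal skin went from -0.66 to 0.0412 (adjusted p = 0.784), and Myh11 in ear skin over dorsal skin from 0.04 to -0.33 under quantile normalization (adjusted p = 0.0396). With only the libraries of the stage, which leaves fewer samples, the counts among domains were 4 in mid-anagen and 5 in refractory telogen. The share of all genes called is not given for these fits, for those with 1 library left out or for F-tests with the replicate block. Their counts are therefore not set against a background. With a minimum of 5 FPKM, 6 of the genes were tested for the complex over dorsal skin and 4 called, where 44.5% of all genes were higher and 35.2% lower. Without dorsal competent telogen and chin late anagen the counts were 6 in competent telogen (background 22%) and 2 in late anagen (2.67%). Without competent telogen and early anagen the count was 6 among the dorsal stages (52.7%). With 1 library left out, the counts among domains ranged from 4 to 7 in late anagen, 8 to 9 in early anagen, 6 to 8 in mid-anagen and stayed at 4 in catagen. Those for the complex ranged from 6 to 9 over dorsal skin and from 7 to 8 over ear skin, and for ear skin over dorsal skin from 7 to 8. No pairing was shown by the replicate numbers, since 37 pairs of the same number and stage had correlations of -0.084 to 0.096, and 21 of 43 libraries correlated best with their own number. With the replicate block, 10 genes showed the interaction, 7 differed among domains in mid-anagen and 6 in late anagen. With this block, fitted without ear skin, 6 differed in the complex over dorsal skin, where 35.6% of all genes were higher and 23.5% lower. Depth limits Lmod1, with an estimated 5.1 fragments in its lowest library.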
